A study of Mus musculus with 6 samples.

Results

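The alcohol dehydrogenases, aldehyde dehydrogenases, aldo-keto reductases and carboxylesterases were examined in the livers of 3 WT and 3 Vps15LKO mice. Members were the protein-coding genes whose symbol starts with Adh, Aldh, Akr or Ces followed by a digit, without Aldh1l1, Aldh1l2 and Akr1d1, which belong to folate and bile acid metabolism. The rule gave 60 of the 56305 genes of the table, namely 6 Adh, 19 Aldh, 16 Akr and 19 Ces genes, and used no measured value. Vps15LKO mice (AlbCre+;Vps15 f/f) lack Vps15, the regulatory subunit of class 3 PI3K encoded by Pik3r4, in the cells where the albumin promoter drives Cre, mainly hepatocytes. All 6 livers came from male mice of 5 weeks with free access to chow, collected at ZT6, and polyadenylated RNA was sequenced with 1 library per liver. The values are normalized counts, in which the reads of each gene were divided by the size factor of the library, and could be turned back into whole reads. Libraries held 16137093 to 18110223 reads on genes, with size factors of 0.742 to 0.801 in WT and 1.23 to 1.41 in Vps15LKO livers.

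The 4 families share a task in the liver, the handling of reactive carbonyls and esters. Alcohol dehydrogenases oxidize alcohols to aldehydes, aldehyde dehydrogenases oxidize aldehydes to acids, and aldo-keto reductases run the reverse step, reducing aldehydes and ketones with NADPH. Carboxylesterases cleave ester and amide bonds of drugs and of cellular lipids, and many are kept in the endoplasmic reticulum of hepatocytes. Several members sit side by side on a chromosome, as copies that arose by duplication of one ancestral gene.

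Of the 60 members, 48 passed the low-value filter (20 normalized counts or more in 3 or more livers) and were tested. In Vps15LKO liver 32 of the 48 (66.7%) were called lower and 12 (25.0%) higher, whereas 4 were not called. A call required a fold of at least 1.2 and an adjusted p under 0.05 in limma (Benjamini-Hochberg, over the 15430 genes that passed the same filter). Among all tested genes, 33.0% were called lower and 33.5% higher. Of the 12 members called higher, 5 (Akr1b7, Akr1c18, Aldh1a2, Aldh1a3 and Aldh3b3) were under 20 in every WT liver and passed the filter only through the Vps15LKO livers, and Ces4a passed only through the WT livers. These 6 had to differ once tested, so their values are given below as a description, without a p. With 20 required in every liver, 30 of 41 members were lower and 7 higher, against 36.2% and 27.9% of all genes tested so. The median log2 fold change was -0.94 over the 48 members and -0.02 over all tested genes. WT and Vps15LKO values did not overlap for 44 of the 48 members (91.7%), against 73.2% of all tested genes. The Adh genes were called lower throughout (4 of 4), the Aldh genes fell in 11 and rose in 6 of 17 cases, the Akr genes fell in 8 and rose in 5 of 14, and the Ces genes fell in 9 and rose in 1 of 13. The plot of fold changes orders the members from Ces3b, the lowest, to Akr1c18, the highest.

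**Figure D1:**
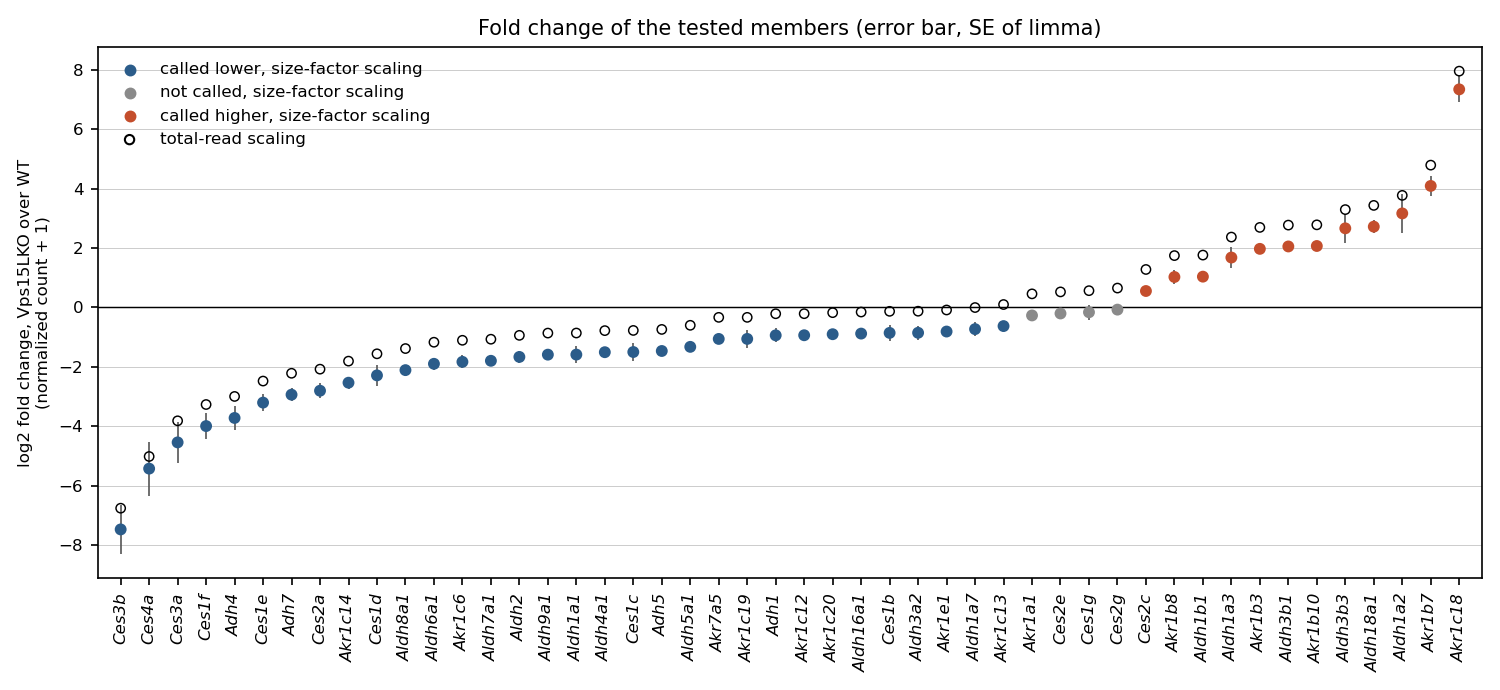
The log2 fold change (Vps15LKO over WT, on log2 of the normalized count + 1) is shown for the 48 tested members in rising order, with the SE of limma, n = 3 livers per genotype; filled circles use the authors' size factors and open circles scaling to the total reads of each library. Filled circles run from -7.48 for Ces3b to 7.34 for Akr1c18, and the open circles lie above them, so that the 4 members that were not called and Akr1c13 pass to values above 0.

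The share of all reads on genes that fell on the 60 members needs no scaling between libraries. It was 1.76%, 1.75% and 1.48% in WT livers 1 to 3 but 0.932%, 1.10% and 0.782% in Vps15LKO livers 1 to 3, without overlap. When each library was scaled to its total reads, the median over all tested genes moved by 0.72 on the log2 scale, to 0.70, and that of the members moved to -0.21, which is 0.92 below the former. Under this scaling 22 members were called lower and 16 higher, against 11.1% and 66.7% of all tested genes.

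Hepatocyte markers moved with the members that fell. Of 10 such markers 9 were called lower (median log2 fold change -2.11). The summed level of the 10 was 2794110 to 3176430 normalized counts in WT against 812999 to 1236670 in Vps15LKO livers, with none at 0. Alb, the marker that was not called, made up most of this sum, with a mean of 2183720 in WT and 792222 in Vps15LKO livers. Markers of other cells moved with the members that rose. All 10 stellate cell and fibroblast markers (median 1.70, summed level 7566 to 8043 in WT, 29682 to 34209 in Vps15LKO), 8 of 8 cholangiocyte markers (median 3.28, 1270 to 1423, against 12893 to 24380.5), 6 of 8 macrophage markers (median 1.46, 4674 to 5923, against 17390 to 18217) and 8 of 8 proliferation genes (median 4.07, 147 to 434, against 2927 to 3135) were called higher. Spp1 made up most of the cholangiocyte sum in Vps15LKO livers, with a mean of 551 in WT and 14767 in Vps15LKO livers. The cholangiocyte markers Cftr and Cldn4 and the proliferation genes Aurkb and Bub1 were under 20 in each WT liver. These genes therefore had to be called higher. With 20 required in every liver 4 of 4 cholangiocyte markers and 2 of 2 proliferation genes were called higher. Of the endothelial markers 3 of 7 were higher and 4 lower (median -0.36, 6309 to 6853, against 4941 to 6517). Of the mesothelial markers 1 of 4 tested was higher (median -0.03, 201 to 230, against 257 to 296). This was Krt7, also in the cholangiocyte list (mean 20.1 in WT, 99.4 in Vps15LKO). The counts of all these lists stand against 33.0% lower and 33.5% higher of all tested genes. Under total-read scaling (11.1% and 66.7% of all) 9 hepatocyte markers were lower and 0 higher. The stellate, cholangiocyte, macrophage and proliferation lists had 10, 8, 7 and 8 higher and 0 lower. Endothelial markers had 0 lower and 4 higher, mesothelial markers 0 and 2. The part of these markers in the results below was not tested. In whole liver fewer cells of a type and less RNA per cell cannot be told apart. The targeted gene Pik3r4 was at 508, 573 and 460 normalized counts in WT and 341, 362 and 355 in Vps15LKO livers, a log2 fold change of -0.54 ± 0.11 (SE, adjusted p = 0.0021), which became 0.19 under total-read scaling. Reads outside the deleted exon count toward Pik3r4, so this value does not check the deletion.

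**Figure D2:**
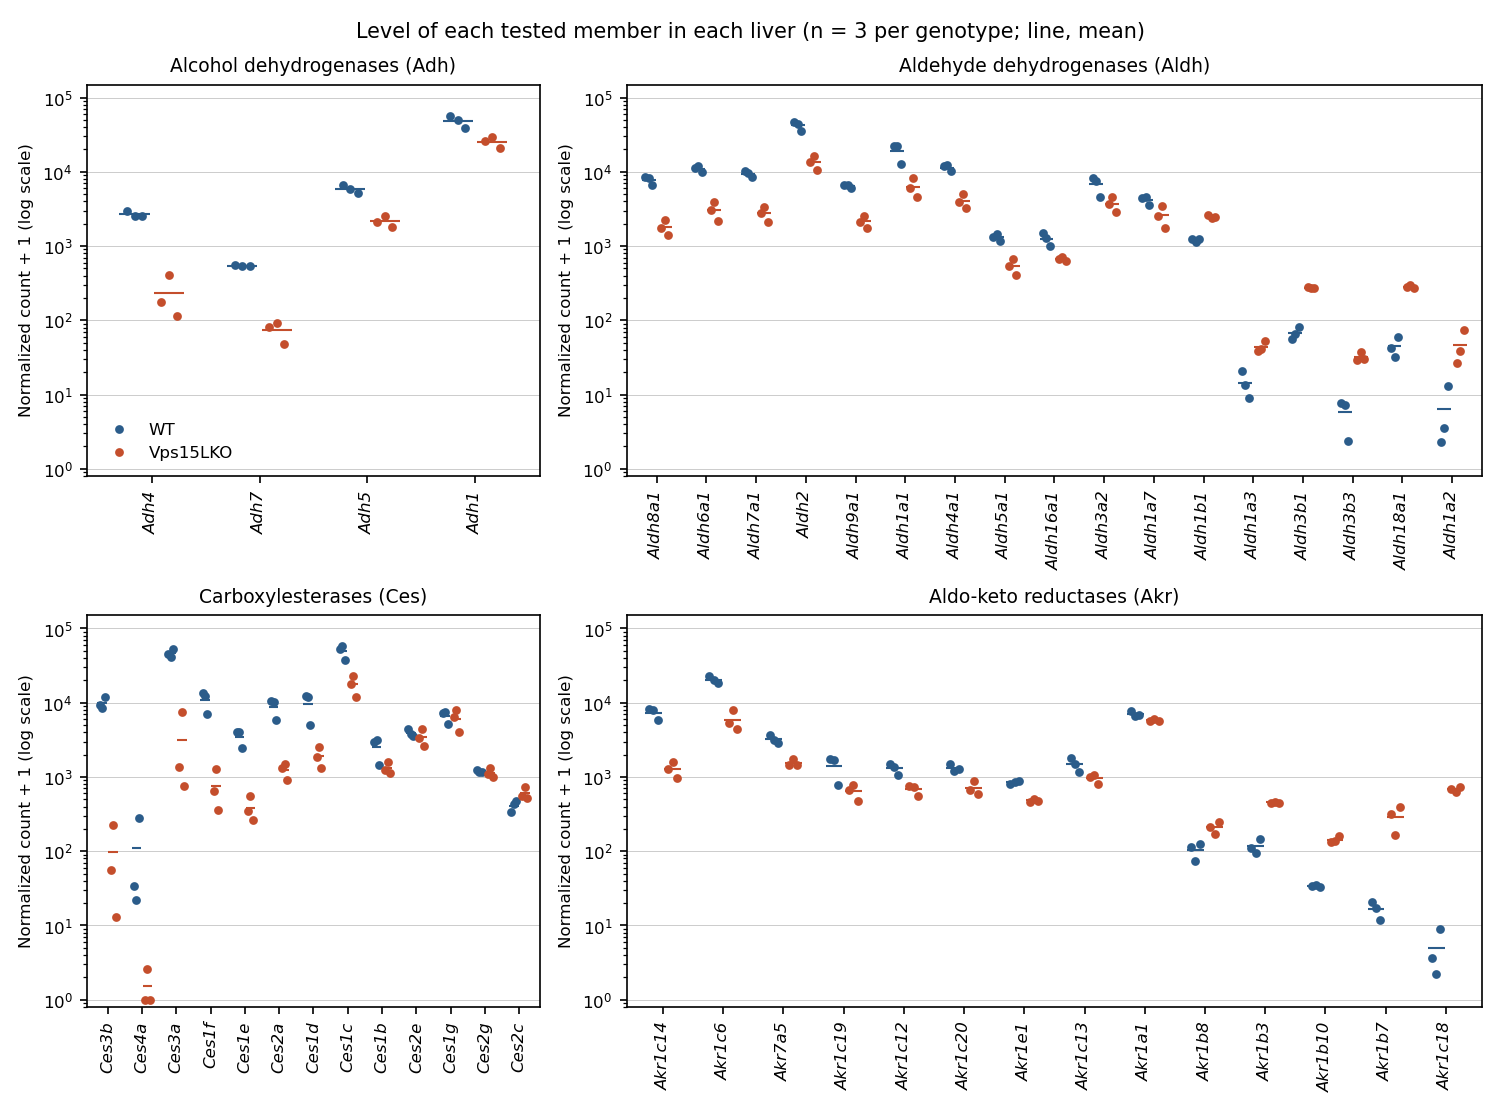
Each point is the normalized count + 1 (log axis) of 1 tested member in 1 liver, blue for WT and red for Vps15LKO, with a line at the mean of the 3 livers; members of each family are ordered by fold change. The members of highest WT mean in each family, Adh1, Aldh2, Akr1c6 and Ces1c, were all lower in Vps15LKO liver. Most of the members that rose had lower WT levels than any member called lower except Ces4a. Of those that rose, 5 were under 20 in every WT liver and could enter the test only by being higher in Vps15LKO liver. Part of this pattern thus comes from the filter.

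The alcohol dehydrogenases were lower in Vps15LKO liver, and by unequal amounts. Adh1, the class I enzyme that oxidizes most ethanol in liver, was at 56894, 49356 and 39489.8 normalized counts in WT and at 25805, 29214 and 20782 in Vps15LKO livers. The 2 groups did not overlap, and WT liver 3 was the lowest of its group. The log2 fold change of Adh1 was -0.94 ± 0.23 (adjusted p = 0.0063), but it was -0.21 and not called under total-read scaling and 0.37 after quantile normalization. Adh4, the class II enzyme, which takes up longer alcohols and retinol, stood at 2937, 2524 and 2546 in WT and at 176, 411 and 112 in Vps15LKO livers. Every Vps15LKO liver was far under every WT liver, with a log2 fold change of -3.72 ± 0.39 (adjusted p = 5.59e-05). The per-kilobase ratio of Adh1 to Adh4 within a library, which no size factor touches, was 12.6, 12.7 and 10.1 in WT and 95.4, 46.2 and 121 in Vps15LKO livers. Adh5, the class III enzyme that clears formaldehyde bound to glutathione, was at 6613, 5938 and 5224 in WT and 2105, 2524 and 1819.8 in Vps15LKO livers (log2 fold change -1.47 ± 0.14, adjusted p = 4.02e-05). Adh7, the class IV retinol-oxidizing enzyme better known from stomach, was at 552, 536 and 545 in WT and 80.9, 90.8 and 46.7 in Vps15LKO livers (-2.94 ± 0.23, adjusted p = 1.12e-05).

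Acetaldehyde, the product of ethanol oxidation, is cleared mainly in mitochondria by Aldh2, with Aldh1b1 as a related mitochondrial enzyme, and this pair moved in opposite directions. Aldh2 was at 47354, 44409 and 35748 normalized counts in WT and at 13527, 16178 and 10696 in Vps15LKO livers. That was 31.7% of the WT mean, with a log2 fold change of -1.67 ± 0.21 (adjusted p = 0.000161). Aldh1b1 was at 1259.7, 1127 and 1263 in WT and at 2595, 2388 and 2490.3 in Vps15LKO livers. Each Vps15LKO liver lay above each WT liver, and the log2 fold change was 1.03 ± 0.09 (adjusted p = 2.09e-05). The ratio of Aldh2 to Aldh1b1 per kilobase was accordingly 16.9, 17.7 and 12.7 in WT and 2.34, 3.04 and 1.93 in Vps15LKO livers. The coding sequences of the 2 genes were 69.2% identical.

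Retinal is oxidized to retinoic acid by the Aldh1a enzymes. The abundant pair was called lower, and the scarce pair had higher values in Vps15LKO liver. Aldh1a1, the main cytosolic retinal dehydrogenase of hepatocytes, was at 22146, 22109 and 12598 normalized counts in WT and at 6094, 8226 and 4510.3 in Vps15LKO livers (log2 fold change -1.59 ± 0.28, adjusted p = 0.000996). Its neighbour Aldh1a7, with 91.6% identity in the coding sequence, was at 4377, 4582 and 3555 in WT and at 2553, 3458 and 1762 in Vps15LKO livers. Here the highest Vps15LKO liver came close to the lowest WT liver, and the call (log2 fold change -0.73 ± 0.23, adjusted p = 0.0184) was lost under total-read scaling (-0.01), after quantile normalization (-0.18) and without WT replicate 1 (-0.69) or 2 (-0.66). Aldh1a2, the retinal dehydrogenase of mesenchymal and mesothelial cells, was at 1.33, 2.50 and 12.1 in WT, from 1, 2 and 9 reads, and at 26.0, 37.3 and 73.6 in Vps15LKO livers. The groups did not overlap, and the log2 fold change was 3.16 ± 0.66, or 3.90 without WT replicate 3, in a gene that was tested only because of its Vps15LKO values. Aldh1a3 was at 19.9, 12.5 and 8.09 in WT and 38.2, 39.7 and 51.6 in Vps15LKO livers (1.68 ± 0.34, or 0.77 after quantile normalization), and likewise passed the filter only through the Vps15LKO livers. Per kilobase these 2 genes stayed low, with mean levels of 20.1 for Aldh1a2 and 9.35 for Aldh1a3 in Vps15LKO liver, against 1271 for Aldh1a1.

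The 6 Aldh members that act in the breakdown of amino acids and amines were all called lower, with a median log2 fold change of -1.70. All 6 were called lower under the authors' size factors, under total-read scaling and after quantile normalization. The shares over all tested genes called lower were 33.0%, 11.1% and 37.6% in these settings. Aldh8a1, of the kynurenine pathway of tryptophan breakdown, was at 8399, 8334 and 6551 normalized counts in WT and 1775, 2234 and 1427 in Vps15LKO livers (-2.11 ± 0.17, adjusted p = 1.64e-05). Aldh6a1, which oxidizes the semialdehydes of valine and thymine breakdown, was at 11272, 11865 and 9949.6 in WT and 3029, 3913 and 2158 in Vps15LKO livers (-1.90 ± 0.20, adjusted p = 6.27e-05). For both genes the lowest WT liver stood well above the highest Vps15LKO liver. Of the exonic bases of Aldh6a1, 18.6% lie opposite Bbof1 (1624 to 2137 in WT, 386 to 679 in Vps15LKO livers), and in these bases reads of the 2 genes cannot be told apart without the strand setting of the counting. Aldh7a1, of lysine breakdown, was at 10126, 9596 and 8541 in WT and 2748, 3348 and 2140.2 in Vps15LKO livers (-1.80 ± 0.17, adjusted p = 2.88e-05). Aldh9a1, of carnitine and polyamine metabolism, was at 6672, 6595 and 5992 in WT and 2118, 2559 and 1774 in Vps15LKO livers (-1.59 ± 0.14, adjusted p = 2.25e-05). Aldh5a1, which removes succinic semialdehyde, had the smallest fall of the 6, at 1345, 1440 and 1166 in WT and 531, 665 and 402 in Vps15LKO livers (-1.33 ± 0.18, adjusted p = 0.000201). The same limit holds for the 14.1% of its exonic bases that lie opposite 4932702P03Rik (270.5 to 336 in WT, 84.9 to 143 in Vps15LKO livers).

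Proline breakdown and proline synthesis use a pair of members that work on the same intermediate from opposite sides. Aldh4a1, the mitochondrial enzyme of proline breakdown, was at 11928, 12209 and 10148 normalized counts in WT and 3944, 4977 and 3263 in Vps15LKO livers (log2 fold change -1.51 ± 0.17, adjusted p = 7.63e-05). Aldh18a1, which makes the proline precursor from glutamate, was at 41.1, 31.2 and 58.0 in WT and 277, 297 and 274 in Vps15LKO livers (2.72 ± 0.21, adjusted p = 1.28e-05). Neither gene overlapped between genotypes, and the ratio of Aldh4a1 to Aldh18a1 per kilobase was 241, 324 and 145 in WT and 11.8, 13.9 and 9.87 in Vps15LKO livers. Aldh4a1 shares 32.5% of its exonic bases with Gm21969 on the same strand, so that part of its reads cannot be assigned to one of them by position.

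Fatty and lipid-derived aldehydes are the substrates of the Aldh3 enzymes. Aldh3a2, the fatty aldehyde dehydrogenase of the endoplasmic reticulum, was at 8209, 7563 and 4636 normalized counts in WT and 3729.7, 4510.4 and 2886 in Vps15LKO livers. WT liver 3 was nearly as low as Vps15LKO liver 2, and the log2 fold change of -0.86 ± 0.24 (adjusted p = 0.0115) was not called under total-read scaling (-0.13) or after quantile normalization (-0.16). Aldh3b1 was at 54.4, 65.0 and 79.5 in WT and 283, 269.8 and 271 in Vps15LKO livers (2.05 ± 0.16, adjusted p = 1.14e-05). Its neighbour Aldh3b3 was at 6.63, 6.25 and 1.35 in WT, from 5, 5 and 1 reads, and 28.3, 36.5 and 29.0 in Vps15LKO livers (2.66 ± 0.49), and entered the test only through the latter. Aldh16a1, a divergent member, was at 1482, 1279 and 1000.2 in WT and 669, 718 and 629 in Vps15LKO livers (-0.88 ± 0.14, adjusted p = 0.000639), a call that total-read scaling removed (-0.16).

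Among the aldo-keto reductases, Akr1a1 and Akr1b3 reduce sugars and glucuronate. Akr1a1, the aldehyde reductase on the route to ascorbate, was at 7653, 6608 and 6744 normalized counts in WT and 5637, 6070.3 and 5668 in Vps15LKO livers. It was not called (log2 fold change -0.27 ± 0.11, adjusted p = 0.0555), although the values did not overlap, and its direction depended on the scaling, with 0.46 and a call under total-read scaling and 0.56 after quantile normalization. Akr1b3, aldose reductase, which turns glucose into sorbitol, was at 110.1, 94.9 and 146 in WT and 452, 464 and 446 in Vps15LKO livers (1.97 ± 0.16, adjusted p = 1.38e-05). Akr7a5, a reductase of aflatoxin aldehyde and succinic semialdehyde, was at 3653, 3183 and 2883 in WT and 1436, 1744 and 1469 in Vps15LKO livers (-1.06 ± 0.12, adjusted p = 9.11e-05). Akr1e1, which reduces anhydrofructose, fell from 848 ± 37.4 (SD, n = 3, as for the means below) to 482 ± 17.5 (-0.81 ± 0.09, adjusted p = 5.91e-05), and was at -0.09 and not called under total-read scaling.

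Against 33.5% of all tested genes called higher (66.7% under total-read scaling), all 4 Akr1b genes had higher values in Vps15LKO liver under each scaling used. The largest fold change among them was that of Akr1b7, an aldose reductase-like enzyme known from the vas deferens and adrenal gland, at 19.9, 16.2 and 10.8 normalized counts in WT and 318, 166 and 392 in Vps15LKO livers (log2 fold change 4.09 ± 0.34). It was under 20 in each WT liver and passed the filter only through the Vps15LKO livers. Vps15LKO liver 2 was the lowest of its group but still far above the highest WT liver. Akr1b10 was at 33.1, 33.7 and 32.4 in WT and 134, 135 and 158 in Vps15LKO livers (2.07 ± 0.16, adjusted p = 1.03e-05). Akr1b8, a reductase of lipid-derived aldehydes, was at 111, 73.7 and 124 in WT and 208, 169 and 247 in Vps15LKO livers (1.02 ± 0.22, adjusted p = 0.0032). The coding sequences of Akr1b7 and Akr1b10 were 89.2% identical, and 27.2% of the exonic bases of Akr1b7 lie opposite the pseudogene Gm13857, whose count rose alongside (6.70 to 15.9 in WT, 114 to 249.7 in Vps15LKO livers).

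The Akr1c enzymes are hydroxysteroid dehydrogenases. In this group 1 of the 7 tested members was higher and 6 were lower, against 33.5% and 33.0% of all tested genes. Akr1c18, which inactivates progesterone and is best known from the ovary, was at 2.65, 1.25 and 8.09 normalized counts in WT, from 2, 1 and 6 reads, and at 679.6, 634 and 735 in Vps15LKO livers. The gene was near the detection limit in WT livers and well counted in every Vps15LKO liver, with a log2 fold change of 7.34 ± 0.44, and passed the filter only through the latter. Akr1c6, a keto-reductase of sex steroids and the most abundant Akr member in WT liver, was at 23010.5, 20059 and 18473 in WT and 5356, 7916 and 4431 in Vps15LKO livers (-1.83 ± 0.21, adjusted p = 0.000102). Akr1c14, which reduces dihydrotestosterone, was at 8233, 8073 and 5821 in WT and 1270.0, 1598 and 975 in Vps15LKO livers (-2.54 ± 0.20, adjusted p = 1.26e-05). Under total-read scaling the 3 genes were at 7.95, -1.11 and -1.81, and Akr1c6 and Akr1c14 kept their calls. The other Akr1c members that were called lower did not, and ran from -0.34 for Akr1c19 to 0.10 for Akr1c13 under total-read scaling, while quantile normalization removed only the call of Akr1c13 (-0.36). Akr1c12 was at 1504, 1352 and 1061 in WT and 745, 735 and 558 in Vps15LKO livers (-0.94 ± 0.16, adjusted p = 0.000823). Akr1c20 was at 1486, 1189 and 1278 in WT and 661, 882 and 591 in Vps15LKO livers (-0.90 ± 0.16, adjusted p = 0.000912). Neither of these 2 genes overlapped between genotypes. Akr1c13 was at 1810, 1514 and 1161 in WT and 1013, 1054 and 803 in Vps15LKO livers (-0.63 ± 0.17, adjusted p = 0.0106), with its lowest WT liver close to the highest Vps15LKO liver. Akr1c19 was at 1724, 1684 and 776 in WT and 672, 768 and 479 in Vps15LKO livers, and its call (-1.06 ± 0.31, adjusted p = 0.0136) was also lost without WT replicate 1 (-0.86) or 2 (-0.88).

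The carboxylesterases held the deepest falls of all members. Ces3b, a liver esterase of the endoplasmic reticulum, was at 9218, 8458 and 11811 normalized counts in WT and at 55.0, 223 and 12.02 in Vps15LKO livers. The Vps15LKO mean was 0.983% of the WT mean, with a log2 fold change of -7.48 ± 0.83 (adjusted p = 7.61e-05). Its neighbour Ces3a was at 45648, 41196 and 52765 in WT and at 1371, 7394 and 767 in Vps15LKO livers (-4.55 ± 0.69, adjusted p = 0.000436). Vps15LKO liver 2 was the highest and liver 3 the lowest of the group for both genes, so the log2 fold changes became -8.49 for Ces3b and -5.50 for Ces3a without Vps15LKO replicate 2, and -6.44 and -3.86 without Vps15LKO replicate 3. The ratio of Ces3a to Ces3b per kilobase was 4.84, 4.76 and 4.36 in WT and 24.3, 32.4 and 62.3 in Vps15LKO livers. With 95.3% identity between their coding sequences, reads of this pair may have been split between them in counting. Ces4a, next to Ces3b, was at 33.1, 21.2 and 275 in WT and at 0, 1.62 and 0 in Vps15LKO livers. All Vps15LKO livers held 3 reads or fewer, so the level was at least 48.1-fold lower against a floor of 3 reads per library, or at least 11.9-fold lower without WT liver 3, which set much of it. Ces4a passed the filter only through the WT livers.

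The Ces1 genes handle drugs, plasma esters and stored triglyceride. Ces1c, a secreted esterase of mouse plasma with the highest mean of the Ces members in WT liver, although Ces3a exceeded it in WT liver 3, was at 52886, 57246 and 37049 normalized counts in WT and at 18117, 23095 and 11770.5 in Vps15LKO livers (log2 fold change -1.50 ± 0.29, adjusted p = 0.0017), with -0.21 and no call after quantile normalization. Ces1d, a triacylglycerol hydrolase, was at 12274, 11874 and 5017 in WT and 1864, 2550.2 and 1314 in Vps15LKO livers (-2.29 ± 0.36, adjusted p = 0.000529). WT liver 3 was far under the other WT livers for Ces1d, and still above every Vps15LKO liver. Ces1e was at 3998, 3996 and 2480.3 in WT and 347, 551 and 262 in Vps15LKO livers (-3.21 ± 0.28, adjusted p = 2.09e-05). Ces1f was at 13701, 12329.8 and 7112 in WT and 652, 1275 and 354 in Vps15LKO livers (-4.00 ± 0.43, adjusted p = 6.37e-05). For both, every Vps15LKO liver was under every WT liver, and the Vps15LKO means were 11.1% and 6.88% of the WT means. Ces1g, an esterase of lipid secretion and lipoprotein metabolism, was by contrast at 7261, 7606 and 5193 in WT and 6407, 7881 and 4038 in Vps15LKO livers, with overlapping groups. It was not called (-0.16 ± 0.25, adjusted p = 0.582), and its value was above 0 under total-read scaling (0.56, called higher), after quantile normalization (0.66) and without Vps15LKO replicate 3 (0.11). The ratio of Ces1f to Ces1g per kilobase was 1.37, 1.18 and 0.996 in WT and 0.0740, 0.118 and 0.0637 in Vps15LKO livers. Ces1b was at 2954, 3115 and 1452 in WT and 1239, 1607 and 1123 in Vps15LKO livers, with overlap, and its call (-0.86 ± 0.28, adjusted p = 0.0230) was lost under total-read scaling (-0.13), after quantile normalization (-0.48) and without WT replicate 1 (-0.70) or 2 (-0.66) or Vps15LKO replicate 1 (-0.82) or 3 (-0.75).

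Among the Ces2 genes, which favour esters with small acyl groups, only Ces2a was called lower. It was at 10440.5, 10159 and 5872 normalized counts in WT and 1309, 1514 and 916 in Vps15LKO livers (log2 fold change -2.81 ± 0.25, adjusted p = 2.53e-05). Ces2c was the only Ces member called higher, at 333, 426 and 473 in WT and 558, 731 and 518 in Vps15LKO livers (0.55 ± 0.17, adjusted p = 0.0176), a call lost without WT replicate 1 (0.41) or Vps15LKO replicate 2 (0.40). Ces2a and Ces2c were the most alike in sequence of all pairs called in opposite directions, with 82.2% identity in the coding sequence. Ces2e was at 4385, 3804 and 3569.5 in WT and 3365, 4369 and 2642 in Vps15LKO livers (-0.21 ± 0.18, adjusted p = 0.335), and Ces2g at 1234, 1180.4 and 1166 in WT and 1109, 1331 and 984 in Vps15LKO livers (-0.08 ± 0.12, adjusted p = 0.590). Both overlapped between genotypes, and total-read scaling made both of them higher (0.52 and 0.65), while Ces2e was called lower without Vps15LKO replicate 2 (-0.39). Within a library the ratio of Ces2a to Ces2e per kilobase was 2.72, 3.06 and 1.88 in WT and 0.445, 0.396 and 0.397 in Vps15LKO livers, so Ces2a was the more abundant of the 2 in every WT liver and the less abundant in every Vps15LKO liver.

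Summed over its members per kilobase of exon, each family was lower in Vps15LKO liver under the authors' size factors, under TMM, upper-quartile and total-read scaling, and after quantile normalization, except that the Adh sum was 113% of WT after quantile normalization. Under the size factors the sum was 47.9% of WT for Adh, 39.4% for Aldh, 45.4% for Akr and 25.5% for Ces, and the groups did not overlap in any family (exact two-sided permutation test, p = 0.1, the smallest that 3 against 3 livers can give). Relative to all reads on genes the sums were 79.0%, 64.8%, 75.1% and 41.6% of WT, with p = 0.2 for Adh and p = 0.1 for the others in the same exact permutation test.

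Shares within a family do not depend on scaling. Adh1 held 87.5% ± 1.23 (SD, n = 3) of the Adh reads per kilobase in WT and 95.2% ± 0.693 in Vps15LKO liver. Aldh2 held 31.8% ± 0.691 of the Aldh reads in WT and 25.5% ± 0.198 in Vps15LKO liver, and Akr1c6 held 50.3% ± 0.786 of the Akr reads in WT and 31.3% ± 5.22 in Vps15LKO liver. Ces1c rose in share from 34.0% ± 3.98 to 48.9% ± 2.76 of the Ces reads. None of these 4 shares overlapped between genotypes (exact two-sided permutation test, p = 0.1 for each). As further values from the same libraries, Akr1a1 made up 12.1% to 13.8% of the Akr reads in WT and 21.04% to 25.5% in Vps15LKO livers, and Akr1c18 went from at most 0.0377% to between 5.005% and 7.54%. Ces1g and Ces2e made up 4.07% to 4.88% and 2.16% to 2.47% of the Ces reads in WT, and 15.3% to 17.7% and 7.48% to 9.52% in Vps15LKO livers. Ces3a went from between 24.0% and 37.6% to 3.44%, 13.01% and 2.84%.

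**Figure D3:**
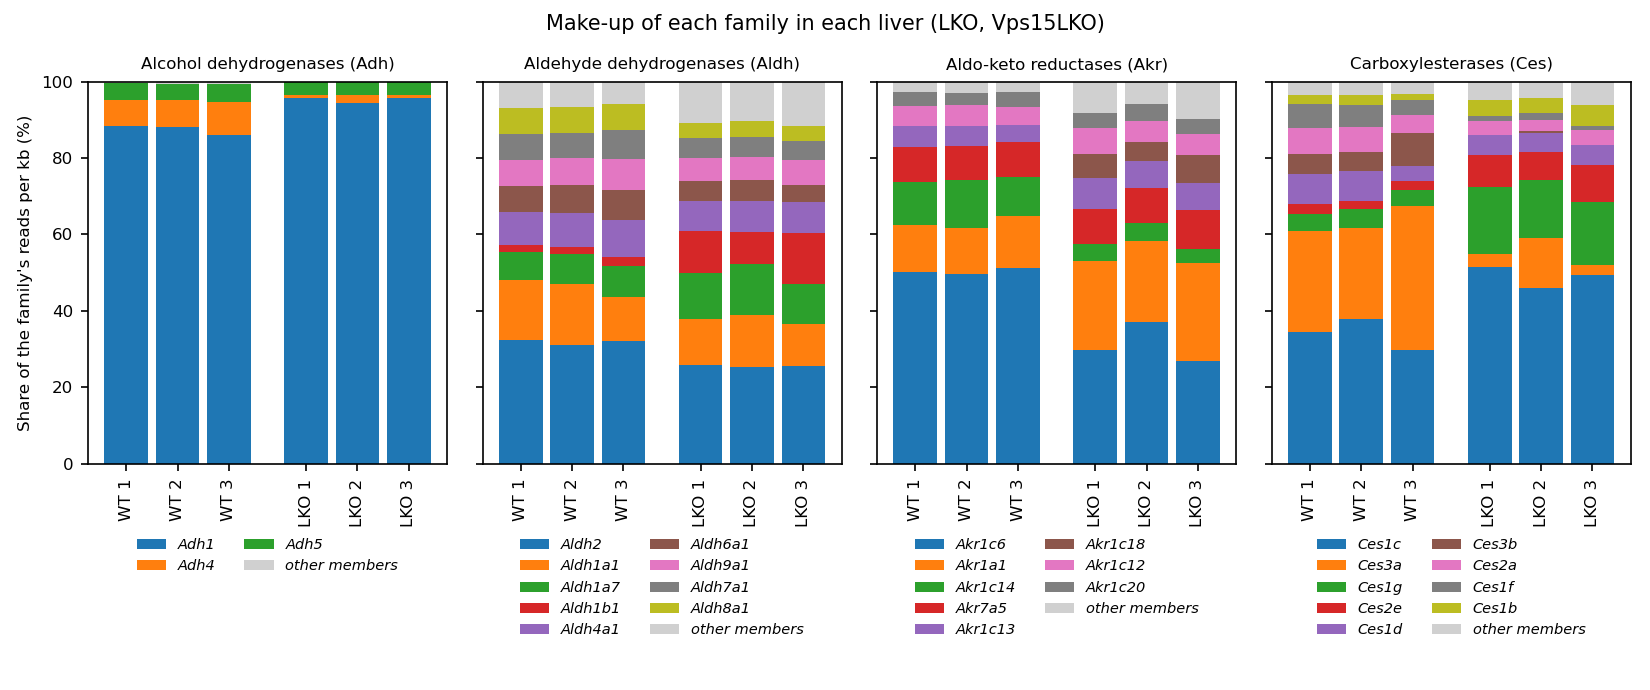
Stacked bars give the share (%) of each family's reads per kilobase of exon held by its main members in each of the 3 WT and 3 Vps15LKO (LKO) livers, with grey for the members not drawn on their own. The Adh1 share rose to above 94% in each Vps15LKO liver, the Akr1c6 and Aldh2 shares fell, and in the Ces family Ces3a gave way to Ces1c, Ces1g and Ces2e.

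Direction and size could be read along the gene clusters, whose counts stand against 33.0% lower and 33.5% higher of all tested genes. The Adh cluster (GRCm38, chr3:138217760-138455499) held 6 members, of which the 4 tested were lower. The Akr1b cluster (chr6:34302434-34423142) held 4 members, all higher. In the cluster of 8 Akr1c genes and Akr1e1 (chr13:4049011-4609174), Akr1c18 lay between Akr1c14 and Akr1c13, both lower. In the Ces1 cluster with Ces5a (chr8:93020214-93535830) the fall deepened from gene to gene in chromosome order, from -0.86 for Ces1b through -1.50 for Ces1c, -2.29 for Ces1d and -3.21 for Ces1e to -4.00 for Ces1f, and was followed by -0.16 for Ces1g. The SEs of these 5 falls lay between 0.28 and 0.43, and the differences between neighbours were not tested. After quantile normalization Ces1b was at -0.48 and Ces1c at -0.21, neither of them called, so the first step went the other way. In the Ces2 to Ces4a cluster (chr8:104734003-105150109) the 4 members called lower lay at the ends, Ces2a first and Ces3a, Ces3b and Ces4a last, with Ces2c, Ces2e and Ces2g between them.

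**Figure D4:**
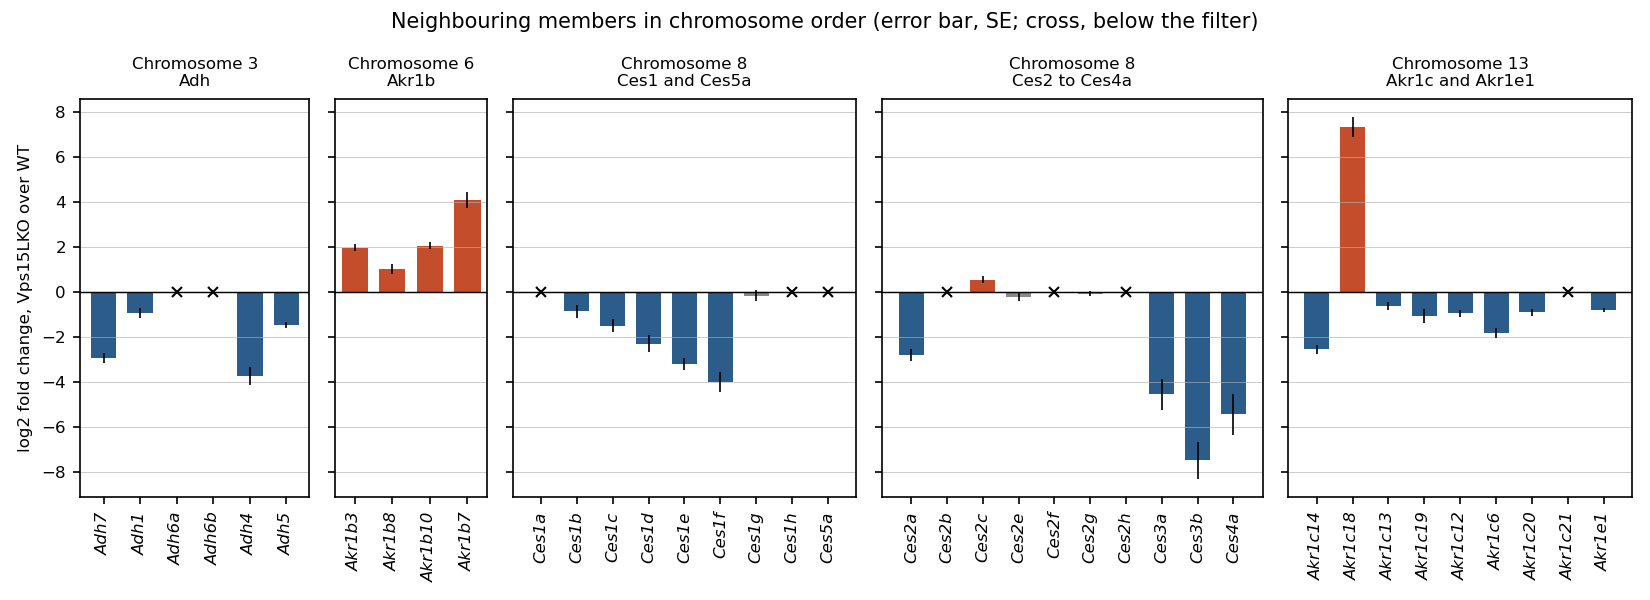
Bars give the log2 fold change (Vps15LKO over WT) with its SE for the members of 5 gene clusters in chromosome order, n = 3 livers per genotype; blue bars were called lower, red higher and grey not called, and a cross marks a member under the low-value filter. Akr1c18 stands at 7.34 beside neighbours below 0. Under the authors' size factors, as drawn, the Ces1 bars deepen from Ces1b to Ces1f before Ces1g at -0.16.

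The promoters of the 2 members with the largest fall and the largest rise are shown for comparison of their letters, as RefSeq sequence of GRCm38.p6 from 250 bases before to 50 bases after the start site. Akr1c18 is on the minus strand (chr13:4150597-4150896) and held none of the motifs searched. Ces3b is on the plus strand (chr8:105083505-105083804), with an HNF1 motif (GTTAAT) from position -56 and a TATA box (TATAAA) from -30 in capitals.

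Akr1c18: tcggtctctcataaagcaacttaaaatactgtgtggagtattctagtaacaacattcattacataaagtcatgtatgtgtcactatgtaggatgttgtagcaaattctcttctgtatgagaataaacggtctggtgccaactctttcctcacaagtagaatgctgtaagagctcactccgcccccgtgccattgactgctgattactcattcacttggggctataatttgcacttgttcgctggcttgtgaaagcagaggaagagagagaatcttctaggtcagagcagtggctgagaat
Ces3b: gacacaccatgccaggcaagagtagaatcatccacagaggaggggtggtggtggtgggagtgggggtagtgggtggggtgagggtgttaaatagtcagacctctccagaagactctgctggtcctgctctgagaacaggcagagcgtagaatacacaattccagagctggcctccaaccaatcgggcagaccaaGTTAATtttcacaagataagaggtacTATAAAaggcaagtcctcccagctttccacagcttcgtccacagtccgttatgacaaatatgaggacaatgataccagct

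Motifs were searched on both strands in the 52 promoters of the 48 members that had any in the RefSeq table. The E-box CACGTG, the letters bound by the clock factors Bmal1 and Clock, was found in 4 of the 52 promoters, each of a different member, against 7.15% of all 32851 promoters. The 30 bases around it (capitals) are given because the study concerned the liver clock.

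Adh1: aaagggccagatCACGTGtgggatcagctg
Aldh3a2: gggcctcatagtCACGTGcagcagctcagc
Akr1c21: cattaactcccaCACGTGacacagattata
Aldh18a1: ggagggggccgcCACGTGgagcgtgggcgc

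These windows are at chr3:138277577-138277606 (plus strand, E-box from position 5 after the start site), chr11:61267199-61267228 (minus, -30), chr13:4574022-4574051 (plus, -41) and chr19:40588505-40588534 (minus, -59). Of these genes Adh1 and Aldh3a2 were called lower and Aldh18a1 higher, and Akr1c21 was too low to test. The antioxidant response element core TGACNNNGC was in 5 of the 52 promoters, against 12.4% of all. Of the members with a promoter it was in 1 of 10 called higher (Aldh1a2) and in 2 of 26 called lower. Adh6a and Akr1cl, which also held it, were not tested. TATAAA was in 9 of the 52 (13.6% of all) and GTTAAT in 5 (7.10% of all). The C/EBP letters TTGCGCAA and the HNF4 letters CAAAGTCCA were in none (0.183% and 0.475% of all). A match in these windows is a description of letters and not a binding site.

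Other genes that share substrates with the members were read from lists, whose counts stand against 33.0% lower and 33.5% higher of all tested genes, or 11.1% and 66.7% under total-read scaling. Of 7 further genes of ethanol, acetaldehyde and acetate handling 5 were lower and 1 higher, with a median log2 fold change of -1.31 (4 lower and 2 higher under total-read scaling). Cyp2e1, the ethanol-oxidizing cytochrome, fell from 178970 ± 32725 to 16486 ± 5431 normalized counts (log2 fold change -3.47, adjusted p = 2.28e-05). Catalase (Cat) had a log2 fold change of -1.74 and Acss2, which activates acetate, one of -1.73. Acss1, which passed the filter only through the Vps15LKO livers, was at 2.84, from 9, 7 and 1 reads in WT livers 1 to 3. In the retinoid list (median -0.64) 11 of 17 tested genes were lower, with Rdh16 at -2.33, Rdh7 at -2.22 and the retinol carrier Rbp4 at -1.75, and 5 were higher, with Dhrs9 at 2.08. Under total-read scaling the retinoid counts were 5 lower and 6 higher.

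Carbonyl and quinone reductases outside the aldo-keto family were lower in 7 and higher in 3 of 11 tested cases, with a median of -0.97 (5 lower and 3 higher under total-read scaling). Cbr3 went from 7.86 ± 3.56 to 1734 ± 253 normalized counts (log2 fold change 7.67, in a gene tested only because of its Vps15LKO values), Nqo1, a quinone reductase, from 127 ± 19.8 to 1539 ± 187 (3.59, adjusted p = 4.50e-07), and Cbr1 had a log2 fold change of 1.62. Hsd11b1, the cortisone reductase, was lowest at -2.55. In the list of ascorbate and polyol enzymes (median -1.43) 7 of 8 were lower, or 5 under total-read scaling, with Khk (ketohexokinase) at -2.20, Rgn at -2.09 and Sord (sorbitol dehydrogenase) at -1.85, and Ugdh was higher at 0.76. Sord uses up the sorbitol that Akr1b3 makes, and fell where Akr1b3 rose.

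Of 16 tested esterases and lipases outside the Ces family 12 were lower and 1 higher (median -1.25; 9 lower and 5 higher under total-read scaling), with Pon1 at -2.66, Afmid at -2.59, Mgll (monoglyceride lipase) at -2.57 and Esd higher at 0.64. Of 19 nuclear receptors and factors known to act on these families 13 were lower and 4 higher, with a median of -0.71. Nr1i3 (CAR) was at -2.13, Ppara at -1.99 and Cebpa at -1.94, and among those that rose Rarg was at 1.002, Nfe2l2 (Nrf2) at 0.63 and Rarb at 0.50. Under total-read scaling 6 of these factors were lower and 7 higher.

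The 12 members under the low-value filter were Adh6a, Adh6b, Aldh3a1, Aldh3b2, Akr1cl, Akr1c21, Ces1a, Ces1h, Ces2b, Ces2f, Ces2h and Ces5a. Their values lay between 0 and 10.7 normalized counts in every liver, except Ces1a at 63.6 in WT liver 1 and Ces2b at 25.6 in WT liver 3. Aldh3a1, Aldh3b2 and Akr1cl were at 0 in all WT livers and between 1.53 and 7.78 in the Vps15LKO livers, from few reads, and were not tested.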

How the data were processed

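RNA-Seq of 3 WT and 3 Vps15LKO livers was used, with groups from the sample labels. The authors filtered reads with SOAPnuke, mapped them with HISAT2 to GRCm38 (mm10), counted them per gene with featureCounts of Subread and normalized with DESeq2; their versions and the strand and multi-mapping settings are not given in the sources used here. The deposited values are a signal, a read count divided by the library's size factor, and 100% of values above 0 were whole multiples of 1 read within a tolerance of 0.01. Per the file header, no column was a comparison by the authors. Symbols and positions come from GENCODE M21 (55141 of 56305 genes matched).

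Genes with at least 20 in at least 3 of 6 livers were compared as log2(normalized count + 1) by limma 3.58.1 under R 4.3.3 (lmFit, eBayes, trended prior variance), and p-values were adjusted by Benjamini-Hochberg over 15430 genes. This scale understates the fold of low genes. The fit was first tested on simulated data. No counting interval is given, since the spread between livers includes it. Sums and shares were compared with exact permutation tests over livers, which cannot go below p = 0.1. Breeding was planned so that litters held mice of each genotype, but the sources used here tie no liver to a litter, and p-values measure the spread between these livers. Alternatives were pseudocounts of 0.1 and 10, other filters, thresholds and scalings, edgeR 4.0.16, DESeq2 1.42.0 and voom on the recovered reads, each replicate left out, and a replicate block. Every tested member could be named, with full statistics for a mean of at least 1000 or a called log2 fold change of at least 2 in size, without a p where the filter fixed the call, and also for Akr1b3, Akr1b8, Akr1e1, Ces2c and (without a p) Aldh1a3, chosen after their values were seen; from each other list at most the 3 largest called changes per direction were named, and 1 gene of the retinoid list is not reported here by name. Members, lists and motifs were chosen with earlier results of these data known. Levels per kilobase use exonic length, and coding sequences were aligned with Biopython 1.88.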

Additional observations from a re-analysis of the deposited data

How the results depend on the processing

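Of 1001 values for the 48 tested members under 21 alternative settings, 951 kept their direction and their side of the threshold, as did all values of 25 of the 41 members with a value under every setting and of 6 of the 7 that the strictest filter left without one. The 12 rises and 32 falls were counted alike with edgeR, limma voom, limma without a trend, other pseudocounts, and TMM or upper-quartile scaling, while DESeq2 gave 12 and 33. Without the filter 16 rose and 32 fell. With at least 20 in every liver 7 rose and 30 fell of 41, since this filter removes 5 members that were low in WT and 2 that were low in Vps15LKO liver. With a fold of 2, 11 rose and 23 fell (3228 and 1957 of all genes). Quantile normalization gave 14 and 26 (4692 and 5801 of all genes), and total-read scaling 16 and 22 (10299 higher and 1712 lower of all genes, against 5163 and 5099), where upper-quartile scaling gave 5755 and 4241. Leaving out 1 replicate gave 11 to 12 rises and 29 to 33 falls.

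Values that changed sign were, under total-read scaling, Akr1a1 (0.46), Akr1c13 (0.10), Ces1g (0.56), Ces2e (0.52), Ces2g (0.65) and Pik3r4 (0.19); after quantile normalization Adh1 (0.37), Akr1a1 (0.56), Ces1g (0.66), Ces2e (0.39) and Ces2g (0.19); under upper-quartile scaling Ces2g (0.048); and without Vps15LKO replicate 3 Ces1g (0.11) and Ces2g (0.026). Over all livers left out in turn, Ces1g ran from -0.37 to 0.11 and Ces2g from -0.19 to 0.026. Pik3r4 did not pass a fold of 2 (-0.54). Family sums in percent of WT were 79.0 for Adh, 64.8 for Aldh, 75.1 for Akr and 41.6 for Ces relative to all reads on genes, and 113, 71.1, 74.8 and 51.9 after quantile normalization. The family sums after quantile normalization and under TMM and upper-quartile scaling were alternatives added after seeing the data. Without length correction the Aldh2 share differed by -4.26 percentage points instead of -6.22. The cause of these differences was not tested.

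Same-numbered WT and Vps15LKO livers did not deviate together (correlations -0.0099, -0.011 and 0.049), so the numbers do not pair them; with the replicate block 12 members rose and 32 fell, as without it. WT liver 3 was the lowest WT liver for 25 of the 32 falling members, and Vps15LKO liver 2 the highest of its group for 31, against 2473 and 3552 of the 5099 falling genes.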

Other observations

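The genes left out by name behaved as follows. Aldh1l1, a folate enzyme, was at 28065, 30575 and 23904 normalized counts in WT and 8203, 9335 and 6202 in Vps15LKO livers, without overlap. Its mitochondrial relative Aldh1l2 was at 3.98, 9.99 and 6.74 in WT and 69.5, 76.2 and 90.5 in Vps15LKO livers, in the opposite direction. Akr1d1, of bile acid synthesis, was at 3685, 4158 and 2665 in WT and 1397, 1569.6 and 953 in Vps15LKO livers. The pseudogene Adh6-ps1 in the Adh cluster was at 426, 418 and 710.4 in WT and 34.4, 94.8 and 43.1 in Vps15LKO livers, and so was above Adh6a and Adh6b in every liver.

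An antisense transcript, Gm16559, shares 6.09% of the exonic bases of Adh1 and was at 12166, 11458 and 8065 in WT and 5282, 6189 and 4049 in Vps15LKO livers. Without the strand setting of the counting, its reads and those of Adh1 cannot be told apart in the shared bases.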
